A study of Sus scrofa with 16 samples.

Results

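The nuclear genes of the mitochondrial respiratory chain and ATP synthase were followed in porcine satellite cells (SCs), the stem cells of skeletal muscle. Members were the genes of the count table whose symbol begins with NDUF, SDHA to SDHD, UQCR, COX4 to COX8 or ATP5, together with CYCS. The rule found 35 of 3875 genes, which were 11 subunits of complex I, 1 complex I assembly factor, 2 subunits of complex II, 2 of complex III, CYCS itself, 10 of complex IV and 8 of complex V. SCs came from the intercostal muscle of male piglets a few days old and were compared in 4 groups of 4 animals: dystrophin-deficient (DMD) SCs in differentiation (DMD DIFF), wild-type SCs in differentiation (WT DIFF), proliferating DMD SCs (DMD PROL) and proliferating WT SCs (WT PROL). DMD piglets carry a deletion of 1 exon of the dystrophin gene, and WT piglets carry the intact gene. All cells had been depleted of CD31+ and CD45+ cells, selected magnetically on satellite cell surface proteins and expanded over several passages, so that they are cultured descendants of SCs and not fresh ones. PROL cells grew with 20% fetal bovine serum and basic fibroblast growth factor, and DIFF cells were kept for days with 5% horse serum. Each animal gave 1 PROL and 1 DIFF library, and the WT and DMD animals are different animals.

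The respiratory chain passes electrons from NADH, through complex I, or from succinate, through complex II, to ubiquinone, and on through complex III and the small soluble carrier cytochrome c to complex IV, which reduces oxygen. Complexes I, III and IV pump protons out of the mitochondrial matrix, and complex V, the ATP synthase, makes ATP as protons flow back. Muscle is rich in mitochondria, myoblasts that form myotubes usually come to rely more on respiration, and several complex IV subunits exist in a form found in most tissues and a second form used in muscle and heart. Subunits encoded in the mitochondrial genome are not among the members and were not analysed here. Nor were nuclear subunit genes absent from the count table, so statements on a complex cover its members alone.

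Expression was measured by 3′ mRNA-seq of 25 ng total RNA, and each value here is the sum of a sample's technical duplicates, given as CPM, counts relative to the library total, after TMM scaling (trimmed mean of M values) of the 16 libraries. Library totals ran from 1110050 to 1781174 counts, and the members together took 1.75 to 3.14% of them. Over all 16 libraries together 30 members had 2586 counts or more, while SDHD had 544, NDUFA6 438, NDUFA13 170, COX8H 100 and NDUFA4L2 10. The library DMD PROL replicate 4 stood apart, because the ribosomal RNA gene RN18S took 20.4% of its counts, against 6.32 to 11.7% in the 15 others. The excess lay in its first duplicate, with 31.99% RN18S against 7.14% in its second. The 3′ tags of the dystrophin gene lie beyond the deleted exon and do not check the genotype: they reached 21.6 to 33.6 CPM in DMD DIFF, 8.26 to 16.2 CPM in WT DIFF, 14.8 to 19.7 CPM in DMD PROL and 3.26 to 4.62 CPM in WT PROL. The 11 muscle markers in the table were counted in every group with the exception of MYF5, an early myogenic regulator, which was at 0 in all 8 WT libraries. They reached a summed level of 19038 to 22862 CPM in DMD DIFF, 3019 to 5276 CPM in WT DIFF, 5988 to 9662 CPM in DMD PROL and 306 to 432 CPM in WT PROL. The 4 endothelial markers in the table summed to 27.4 to 49.0 CPM in DMD DIFF, 60.5 to 114 CPM in WT DIFF, 13.5 to 28.9 CPM in DMD PROL and 107 to 134 CPM in WT PROL, with CLDN5 at 0 in all groups but DMD PROL and VWF at 0 in PROL. The 4 blood markers summed to at most 72.8 CPM in any library, with CD3E at 0 throughout, and the 4 adipocyte markers to at most 23.6 CPM, with ADIPOQ at 0 throughout.

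In differentiated cells most members of the chain were expressed at a higher level in DMD than in WT SCs, and CYCS differed most. Of 32 members tested, 6 were called higher in DMD DIFF than in WT DIFF and 1 lower. A call needed an adjusted p below 0.05 (edgeR quasi-likelihood test, Benjamini-Hochberg over all genes tested) and a log2 fold change above 0.6 in size. Over all 1916 genes tested, 16.1% were called higher and 17.5% lower, so that the members' 6 calls are close to the background share. The adjusted p alone was met by 18 members on the higher side and 3 on the lower, while 22.9% and 24.8% of all genes met it on these sides. The members' log2 fold changes ran from -0.81 to 1.94 with a median of 0.34, against -0.03 over all genes. Called higher were CYCS, the complex I subunits NDUFA8 and NDUFB2, the complex IV subunit COX7A2 and the ATP synthase subunits ATP5G3 and ATP5I, and called lower was COX7A1, the muscle and heart form of complex IV subunit VIIa. A further 12 members passed the adjusted p alone at log2 fold changes of 0.28 to 0.58, namely NDUFA11, NDUFAB1, NDUFB8, UQCR10, UQCRB, COX5B, COX6B, NDUFA4, ATP5A1, ATP5G1, ATP5J2 and ATP5L. NDUFS5 and the assembly factor NDUFAF3 did so on the lower side, at -0.36 and -0.55. Expression did not overlap between genotypes for 18 members higher and 3 lower in DMD DIFF, where 22.1% and 23.2% of all genes did not overlap.

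In proliferating cells fewer members were called, and the differences were nearly all in 1 direction. Only NDUFA4, of 32 members tested, was called higher in DMD PROL and none lower, against 8.36% and 9.87% of the 1914 genes tested. No member was lower at an unadjusted p below 0.05 or by DESeq2 either. The adjusted p alone was met by 13 members, all higher in DMD PROL, while 13.3% of all genes met it on the higher and 13.6% on the lower side. Besides NDUFA4 these were NDUFA8, NDUFS3, UQCR10, COX6B, COX6C, COX7C, ATP5A1, ATP5E, ATP5G3, ATP5I, ATP5J2 and ATP5L, with log2 fold changes of 0.27 to 0.50. The median over the 32 members was 0.25, against -0.00 over all genes, and 27 members were above 0. Groups did not overlap for 15 members, all higher in DMD PROL, against 15.8% of all genes on the higher side and 14.2% on the lower.

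**Figure D1:**
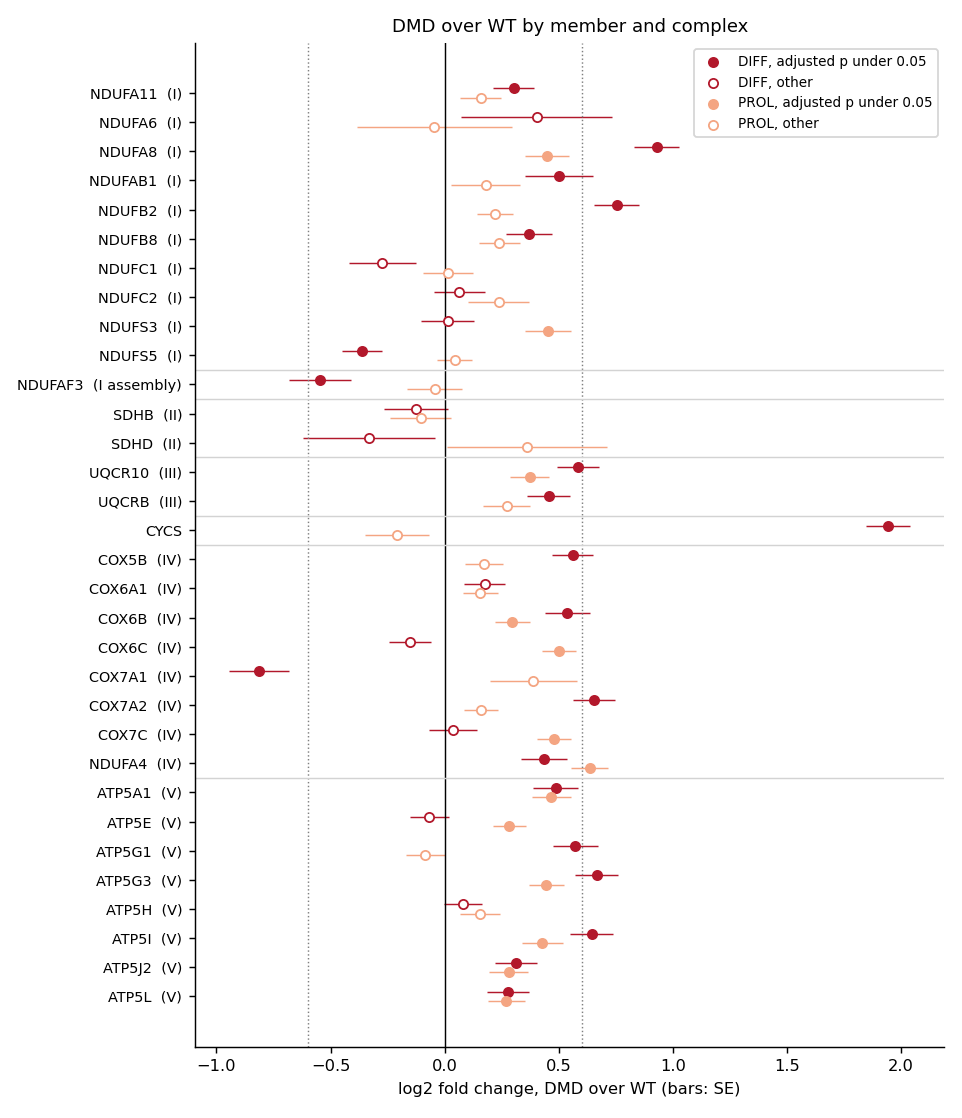
Log2 fold change of DMD over WT SCs for the 32 members tested in both states, with standard errors as bars, in DIFF (dark red) and PROL (light orange), where filled points have an adjusted p below 0.05 and dotted lines mark 0.6 and -0.6. CYCS stands apart at 1.94 in DIFF, COX7A1 lies lowest at -0.81 in DIFF, and most other points lie between 0 and 0.75.

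These levels are relative to the other RNAs of a library, and scaling by library size alone moved the median of all genes by -0.15 in PROL and 0.14 in DIFF. The share of higher calls among all calls then changed to 31.6% in PROL, against 45.8% with TMM, and to 59.2% in DIFF, against 47.9%. Members were above 0 in 25 of 32 cases in PROL and 26 of 32 in DIFF under that scaling, against 27 and 24 with TMM. Their median lay above that of all genes by 0.26 in PROL and 0.37 in DIFF under either. Scaling shifts all genes nearly alike, so this distance could hardly change and is no check on it. With library size alone 12 members were called higher in DIFF and none in PROL. DESeq2 called 9 higher, COX8H among them, and 1 lower in DIFF, out of 35 members tested. Median-of-ratios factors in edgeR gave 8 and 1 there. Calls over all genes moved too. In DIFF 308 genes were called higher with TMM, 387 with library size alone, 339 with DESeq2 and 325 with median-of-ratios factors. In PROL 160 were called higher with TMM and 122 with library size alone. Leaving out WT DIFF replicate 4 raised the members' higher calls in DIFF to 11. Muscle markers moved with the genotype as well: all 8 tested in PROL and all 9 tested in DIFF were called higher in DMD SCs, and fibroblast markers were lower in DMD SCs for 4 of 5 tested in PROL and 5 of 6 in DIFF. The fibroblast markers summed to 9476 to 12703 CPM in DMD DIFF, 21289 to 24375 CPM in WT DIFF, 4139 to 4577 CPM in DMD PROL and 8241 to 10003 CPM in WT PROL. Their part in the members' levels was not tested, and in these bulk samples fewer cells of a type and less RNA per cell cannot be told apart.

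The response to differentiation was called different between the genotypes, by the interaction test given below, for few members. Of 34 tested, 2 were called higher and 2 lower, against 10.5% and 13.0% of all 2030 genes tested. In WT SCs 4 of 32 members fell in DIFF relative to PROL and 1 rose, against 14.3% lower and 17.9% higher among the 1921 genes tested. CYCS, NDUFB2, COX7A2 and ATP5G1 fell and COX7A1 rose. Another 10 members passed the adjusted p alone on the lower side, at log2 fold changes of -0.53 to -0.28, and NDUFS5, COX6C and ATP5E did so on the higher side at 0.36, 0.59 and 0.55. In total the adjusted p alone was met by 4 members higher and 14 lower in WT DIFF, against 24.8% and 22.0% of all genes. The members' median was -0.23, against 0.03 over all genes.

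In DMD SCs no member was called in either direction among 34 tested, where 16.0% of the 1886 genes tested were called higher and 12.4% lower. DESeq2 called 0 members as well, and at an unadjusted p below 0.05 there were 2 members higher and 15 lower in DMD DIFF. The adjusted p alone was met by CYCS and ATP5E on the higher side and by 12 members on the lower, at log2 fold changes of -0.52 to -0.21, while 22.1% of all genes met it on the higher and 20.3% on the lower side. The 12 were NDUFB2, NDUFC1, NDUFS3, SDHB, UQCRB, COX7C, NDUFA4, ATP5A1, ATP5G3, ATP5H, ATP5I and ATP5L. The median over the members was -0.16, against 0.01 over all genes.

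**Figure D2:**
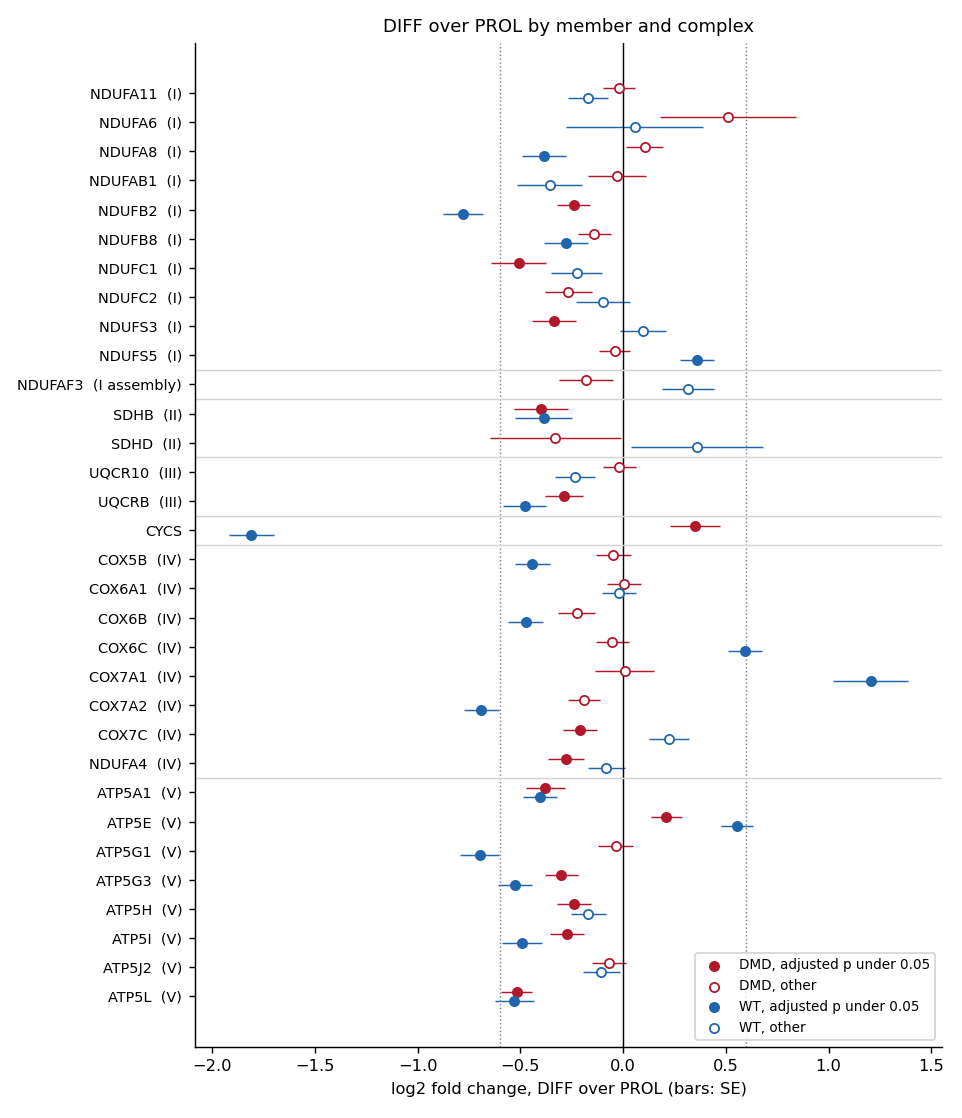
Log2 fold change of DIFF over PROL for the 32 members tested in both genotypes, with standard errors as bars, in DMD SCs (red) and WT SCs (blue), where filled points have an adjusted p below 0.05 and dotted lines mark 0.6 and -0.6. WT points spread from -1.81 for CYCS to 1.21 for COX7A1, while the DMD points of both genes lie at 0.35 and 0.01.

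Scaling mattered more here, since library size alone moved the median of all genes by -0.35 in WT and -0.07 in DMD SCs. Higher calls then made up 25.6% of all calls in WT SCs, against 55.5% with TMM, and 51.3% in DMD SCs, against 56.3%. In WT SCs the members' median lay 0.26 below that of all genes, a distance that a change of scaling leaves nearly unchanged. Under library size alone 15 members were called lower in WT DIFF and 1 higher. Of the 1921 genes tested, 564 were called lower and 194 higher under it, against 275 and 343 with TMM. Cell cycle genes, of which 4 of 5 tested were called lower in DIFF in each genotype, and muscle markers, of which all 8 tested in WT and 8 of 9 in DMD SCs were called higher, moved with the state. Fibroblast markers did so too, with 3 of 5 tested called higher and 1 lower in DMD SCs, and 5 of 6 called higher in WT SCs. Their part in the members' levels was not tested.

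CYCS encodes cytochrome c, which carries electrons from complex III to complex IV and, once released into the cytosol, starts the caspase cascade of apoptosis. CYCS reached 1024, 1047, 1185 and 1159 CPM in DMD DIFF, against 308, 256, 270.4 and 306 CPM in WT DIFF. Every DMD DIFF library lay far above every WT DIFF library, with a log2 fold change of 1.94 ± 0.10 (standard error, edgeR adjusted p = 1.1e-10). In proliferating cells CYCS had 721, 772, 1128 and 820.2 CPM in DMD PROL and 1112, 818, 1091 and 932 CPM in WT PROL, and these ranges overlapped. The log2 fold change in PROL was -0.21 ± 0.14 (edgeR adjusted p = 0.3), and leaving out DMD PROL replicate 3, the highest of its group, moved it to -0.36 with an edgeR adjusted p of 0.026. CYCS fell in WT DIFF in all 4 animals, with log2 ratios of -2.01 to -1.61 within an animal, and the fitted log2 fold change of DIFF over PROL was -1.81 ± 0.11 (edgeR adjusted p = 4.7e-09). In DMD SCs it was higher in DIFF in 4 of 4 animals, with a log2 fold change of 0.35 ± 0.12 that passed the adjusted p but not the fold threshold (edgeR adjusted p = 0.036). That adjusted p ranged up to 0.10 when single replicates were left out, the highest without DMD PROL replicate 1. With library size alone, with or without RN18S, CYCS did not pass it. Over all alternatives the edgeR adjusted p reached 0.12 and the log2 fold change stayed above 0. Within the members' own counts, CYCS made up 4.23 ± 0.317% in DMD DIFF and 1.36 ± 0.0982% in WT DIFF, and 3.02 ± 0.675% in DMD PROL and 4.25 ± 0.546% in WT PROL (SD, n = 4 each). As a share of the same genes, too, WT DIFF was the low group. Reads that map to several places were not counted, and CYCS has many processed copies in the human genome, so that its absolute level is uncertain.

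**Figure D3:**
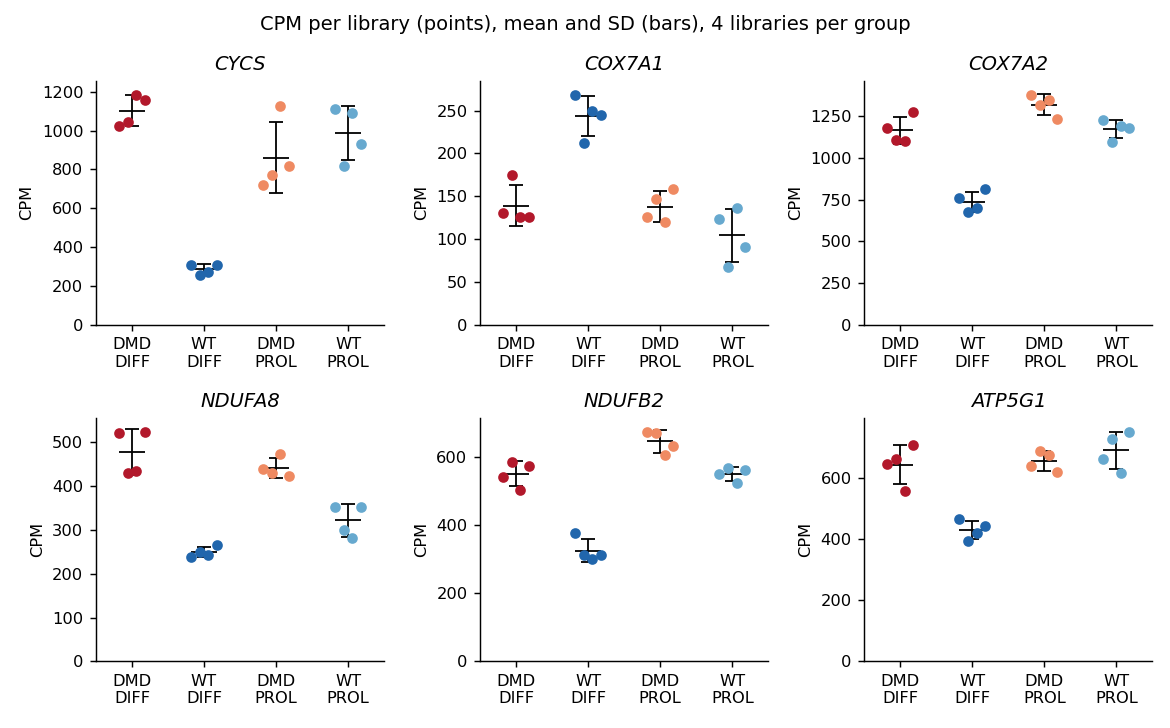
CPM of CYCS, COX7A1, COX7A2, NDUFA8, NDUFB2 and ATP5G1 in each of the 16 libraries (points), with group mean and SD (bars), for DMD DIFF, WT DIFF, DMD PROL and WT PROL. WT DIFF libraries are lowest in 5 of the 6 genes, CYCS among them at 256 to 308 CPM, and highest in COX7A1 at 212 to 268 CPM.

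Complex I, the NADH dehydrogenase, was represented by 10 testable accessory and core subunits. NDUFA8, an accessory subunit of the intermembrane space side, had 522, 430.2, 435 and 525 CPM in DMD DIFF, against 239, 250.3, 243 and 265 CPM in WT DIFF. Groups did not overlap, and the log2 fold change was 0.93 ± 0.10 (edgeR adjusted p = 9.9e-07). In PROL it had 440.4, 429.8, 473 and 423 CPM in DMD PROL and 354, 300.3, 281 and 352 CPM in WT PROL. Groups were separate there too, with a log2 fold change of 0.45 below the fold threshold (edgeR adjusted p = 0.0029). NDUFB2, a subunit of the membrane arm, had 542, 585, 504 and 573 CPM in DMD DIFF and 377, 312, 301 and 312 CPM in WT DIFF. Its log2 fold change of 0.75 ± 0.10 in DIFF (edgeR adjusted p = 9.5e-06) compares with 0.22 in PROL (edgeR adjusted p = 0.051), where it had 675, 671, 606 and 634 CPM in DMD PROL and 550.1, 569.6, 524 and 563 CPM in WT PROL. NDUFB2 fell in WT DIFF relative to WT PROL, with a log2 fold change of -0.78 ± 0.10 (edgeR adjusted p = 7.8e-06), and it was lower in DIFF in 4 of 4 animals of either genotype.

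NDUFS5, the complex I member with the highest mean CPM, had a difference of the opposite sign in DIFF. It had 589.5, 674, 603 and 644 CPM in DMD DIFF, below all WT DIFF libraries with 784, 881, 778 and 770.3 CPM. The log2 fold change of -0.36 ± 0.09 passed the adjusted p but not the fold threshold (edgeR adjusted p = 0.003). Proliferating cells did not separate by genotype, with 659, 648, 610.2 and 649.6 CPM in DMD PROL and 640.4, 640.3, 612 and 580.1 CPM in WT PROL. The assembly factor NDUFAF3, which acts early in building complex I, was likewise lower in every DMD DIFF library, at 101 to 128 CPM, than in WT DIFF, at 139 to 193 CPM. NDUFA13, another accessory subunit, was below the main filter between genotypes. It had 64 counts in DMD DIFF and 30 in WT DIFF (rate ratio 2.29, 95% interval 1.46 to 3.66 for counting error only). Proliferating cells had 44 in DMD PROL and 32 in WT PROL (1.17, 0.728 to 1.91). With all counts halved, since every deposited value was even, the interval in DIFF was 1.20 to 4.55. These intervals pool the animals of a group and leave out their spread. Libraries overlapped in DIFF, at 5.69 to 15.4 CPM in DMD DIFF and 4.08 to 6.88 CPM in WT DIFF. Neither edgeR without the filter nor DESeq2 reached an adjusted p below 0.05 in DIFF (edgeR adjusted p = 0.15, DESeq2 adjusted p = 0.10).

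Complex II, which oxidises succinate, was the complex without a member past the adjusted p between genotypes. SDHB, its iron-sulfur subunit, had 86.8, 93.3, 84.9 and 89.6 CPM in DMD DIFF and 97.7, 94.2, 109 and 84.4 CPM in WT DIFF, and these overlapped. The same held in proliferating cells, with 127, 109, 121 and 109 CPM in DMD PROL and 124, 108, 121 and 146 CPM in WT PROL. Log2 fold changes of DMD over WT were -0.13 ± 0.14 in DIFF and -0.11 ± 0.13 in PROL. Against PROL, SDHB was lower in DIFF in 4 of 4 animals of each genotype, with log2 fold changes of -0.40 in DMD (edgeR adjusted p = 0.021) and -0.39 in WT SCs (edgeR adjusted p = 0.033). SDHD, a membrane anchor of the complex, lay between 10.2 and 39.6 CPM in all libraries, and no comparison passed the test.

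Complex III, the cytochrome bc1 complex, had both members higher in DMD SCs in DIFF. UQCR10, a small subunit, had 578, 606, 641 and 653 CPM in DMD DIFF, against 399, 376, 401 and 469.5 CPM in WT DIFF. Groups did not overlap, and the log2 fold change was 0.58 ± 0.09 (edgeR adjusted p = 7.1e-05), just under the fold threshold. In PROL it had 592, 573, 663 and 665 CPM in DMD PROL and 508, 494, 468 and 442 CPM in WT PROL, with a log2 fold change of 0.37 (edgeR adjusted p = 0.004). UQCRB, which helps bind ubiquinone, followed at 0.46 in DIFF and 0.27 in PROL (edgeR adjusted p = 7.4e-04 and 0.06).

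In complex IV, the cytochrome c oxidase, the paired forms of subunit VIIa moved in opposite directions. COX7A1, the muscle and heart form, had 130.2, 175, 125 and 125 CPM in DMD DIFF, against 268, 212, 249.7 and 245 CPM in WT DIFF. All WT DIFF libraries lay above all others, and the log2 fold change of DMD over WT in DIFF was -0.81 ± 0.13 (edgeR adjusted p = 7.8e-05). Proliferating cells overlapped, with 125, 147, 119.9 and 159 CPM in DMD PROL and 124, 67.01, 136 and 90.8 CPM in WT PROL. COX7A1 rose in WT DIFF in 4 of 4 animals, with a log2 fold change of 1.21 ± 0.18 (edgeR adjusted p = 9.2e-05), while in DMD SCs the value was 0.01 ± 0.14 (edgeR adjusted p = 0.97). COX7A2, the form of most tissues, had 1176, 1106, 1103 and 1276 CPM in DMD DIFF and 759.6, 676, 699 and 811 CPM in WT DIFF. Its log2 fold change of DMD over WT in DIFF was 0.65 ± 0.09 (edgeR adjusted p = 1.8e-05). In PROL the levels were 1378, 1318, 1346 and 1234 CPM in DMD PROL and 1228, 1097, 1189.6 and 1180.2 CPM in WT PROL. COX7A2 fell in WT DIFF in all 4 animals, with a log2 fold change of -0.69 ± 0.09 (edgeR adjusted p = 8.3e-06). COX7A1 made up 10.7 ± 2.05% of the counts of both genes in DMD DIFF and 24.9 ± 1.57% in WT DIFF, and 9.49 ± 1.52% in DMD PROL and 8.07 ± 2.01% in WT PROL (SD, n = 4 each). For COX6A1, the form of subunit VIa in most tissues, the log2 fold changes lay between -0.02 and 0.18 in the 4 comparisons of groups and passed no test. It had 1973, 2015, 2165 and 2382 CPM in DMD DIFF, 1847, 1799, 1883 and 1986 CPM in WT DIFF, 2202, 2232, 1926 and 2087 CPM in DMD PROL and 2017, 1882, 1806 and 1823 CPM in WT PROL.

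COX8H, the heart form of subunit VIII, was rare but more often counted in DMD SCs. It had 20, 10, 10 and 10 counts in DMD DIFF, against 0, 0, 2 and 6 in WT DIFF, and 14, 0, 16 and 8 in DMD PROL, against 0, 0, 2 and 2 in WT PROL. The rate ratio of DMD over WT was 6.70 in DIFF (95% interval 3.15 to 16.4) and 8.11 in PROL (2.92 to 31.3), and with counts halved the intervals were 2.31 to 26.5 and 1.96 to 71.8. They cover counting error only, and 1 DMD PROL library had no count. COX8H did not pass the main filter between genotypes. Without the filter its log2 fold changes were 2.58 in DIFF and 3 in PROL (edgeR adjusted p = 0.0051 and 0.022). DESeq2 gave 2.67 in DIFF and 3.15 in PROL (DESeq2 adjusted p = 0.0094 and 0.053). NDUFA4L2, a paralog of NDUFA4, had 6 counts in DMD DIFF, 4 in DMD PROL and 0 in all 8 WT libraries, too few for a fold.

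NDUFA4, first assigned to complex I and now counted with complex IV, was the single member called in proliferating cells. It had 971, 1078, 971 and 923 CPM in DMD PROL, against 588, 602, 668 and 663 CPM in WT PROL. No libraries overlapped, and the log2 fold change was 0.64 ± 0.08 (edgeR adjusted p = 2.8e-05). In DIFF it was 0.43 ± 0.10 (edgeR adjusted p = 0.0019), from 774, 873, 723 and 903 CPM in DMD DIFF and 614, 529, 609 and 660.0 CPM in WT DIFF. The call in PROL lay close to the fold threshold and was lost at 0.49 with library size alone, 0.59 without DMD PROL replicate 2 and 0.60 without WT PROL replicate 1.

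COX7C, the complex IV member with the highest mean CPM, passed the adjusted p between genotypes in PROL but not in DIFF, and the difference between the states passed it as well (log2 -0.44 ± 0.13, edgeR adjusted p = 0.0098). It had 3205, 3293, 3216 and 3247 CPM in DMD PROL, above all WT PROL libraries with 2474, 2195, 2131 and 2446 CPM (log2 fold change 0.48 ± 0.07, edgeR adjusted p = 1.7e-04). DMD DIFF libraries had 2445, 2856, 2752 and 3218 CPM, overlapping WT DIFF with 2500.3, 2649, 2608 and 3178 CPM (log2 fold change 0.04 ± 0.11). COX6C, which encodes subunit VIc, was likewise higher in DMD PROL, with 1332, 1414, 1279.8 and 1337 CPM, than in WT PROL, with 1006, 926, 960.3 and 879 CPM. In DIFF the levels were 1229, 1289, 1231 and 1459.7 CPM in DMD DIFF and 1450.4, 1343, 1441 and 1526 CPM in WT DIFF, which overlapped. Its log2 fold change of DMD over WT was 0.50 ± 0.07 in PROL (edgeR adjusted p = 1.2e-04) and -0.15 ± 0.09 in DIFF (edgeR adjusted p = 0.18). WT SCs had more COX6C in DIFF in 4 of 4 animals, at a log2 fold change of 0.59 ± 0.08 just under the threshold (edgeR adjusted p = 2.5e-05). COX6C took 11.5 ± 0.200% of the complex IV counts in DMD DIFF and 14.9 ± 0.463% in WT DIFF, and 10.9 ± 0.206% in DMD PROL and 9.65 ± 0.492% in WT PROL (SD, n = 4 each).

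**Figure D4:**
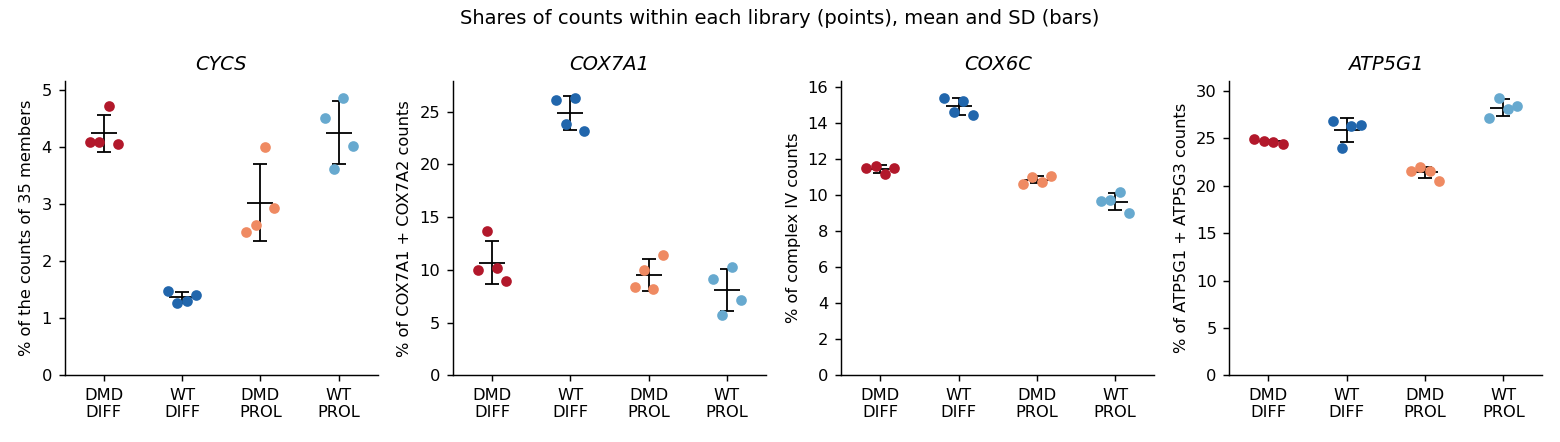
Share of counts within each library (points) with mean and SD (bars) for CYCS among the 35 members, COX7A1 among COX7A1 and COX7A2, COX6C among complex IV members and ATP5G1 among ATP5G1 and ATP5G3, for DMD DIFF, WT DIFF, DMD PROL and WT PROL. WT DIFF is lowest for CYCS at 1.36% and highest for COX7A1 at 24.9% and COX6C at 14.9%, while the ATP5G1 share differs between DMD PROL at 21.4% and WT PROL at 28.2%.

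Complex V, the ATP synthase, had 6 of 8 members past the adjusted p in each state, all higher in DMD SCs, and ATP5G3 and ATP5I were called in DIFF. ATP5G3 and ATP5G1 encode the same mature c subunit of the proton-driven ring from separate genes. ATP5G3 had 1955, 2017, 1709 and 2194 CPM in DMD DIFF, against 1272, 1250.2, 1184 and 1234 CPM in WT DIFF. The groups did not overlap, with a log2 fold change of 0.67 ± 0.09 (edgeR adjusted p = 2.0e-05). In PROL the levels were 2324, 2459.7, 2451 and 2400.2 CPM in DMD PROL and 1787, 1761, 1582 and 1896 CPM in WT PROL, again separate, at a log2 fold change of 0.45 (edgeR adjusted p = 4.0e-04). ATP5I, subunit e of the membrane part, had 1095, 1068, 1121 and 1275 CPM in DMD DIFF and 732, 688, 674 and 808 CPM in WT DIFF. Its log2 fold change of 0.64 ± 0.09 (edgeR adjusted p = 2.6e-05) dropped to 0.59, under the fold threshold, without DMD DIFF replicate 4.

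ATP5G1, the second c subunit gene, passed the adjusted p between genotypes in DIFF. It had 647, 663, 557 and 708 CPM in DMD DIFF, against 465, 395, 422 and 442 CPM in WT DIFF (log2 fold change 0.57 ± 0.10, edgeR adjusted p = 1.3e-04). Proliferating cells had 639, 690.1, 674 and 619 CPM in DMD PROL and 664, 728, 617 and 752 CPM in WT PROL, with overlap and a log2 fold change of -0.08 ± 0.09 (edgeR adjusted p = 0.51). ATP5G1 fell in WT DIFF in 4 of 4 animals, at a log2 fold change of -0.70 ± 0.09 (edgeR adjusted p = 1.8e-05), and was lower in 2 of 4 DMD animals. Its share of the counts of both c subunit genes was 24.7 ± 0.198% in DMD DIFF and 25.9 ± 1.26% in WT DIFF, and 21.4 ± 0.605% in DMD PROL and 28.2 ± 0.904% in WT PROL. Among ATP synthase members ATP5E, the epsilon subunit of the catalytic head, had the highest mean CPM. ATP5E had 1967, 1974, 2146 and 2222 CPM in DMD DIFF and 2093, 2200.0, 2219 and 2149 CPM in WT DIFF, which overlapped. In PROL it had 1804, 1691, 1732 and 1905 CPM in DMD PROL, above 1527, 1419.6, 1457 and 1422 CPM in WT PROL (log2 fold change 0.28 ± 0.07, edgeR adjusted p = 0.0085). It was higher in DIFF than in PROL in 4 of 4 animals of each genotype, with log2 fold changes of 0.21 in DMD and 0.55 in WT SCs.

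Summed over a complex, the members' CPM gave the same order as most single genes, and these sums are descriptions without a test. All members together had 26108 ± 1671 CPM in DMD DIFF and 20901 ± 665 CPM in WT DIFF, a ratio of 1.25, and 28538 ± 613 CPM in DMD PROL and 23234 ± 1009 CPM in WT PROL, a ratio of 1.23 (SD, n = 4 each). Complexes I, III, IV and V were each higher in every DMD library than in every WT library of the same state. In DIFF the ratios of DMD over WT means were 1.18 for complex I, 1.45 for complex III, 1.18 for complex IV and 1.27 for complex V, and in PROL they were 1.16, 1.26, 1.26 and 1.26. Complex II overlapped in both states, with ratios of 0.896 in DIFF and 0.982 in PROL. Relative to PROL, the sum of all members in DIFF was 0.915 times as high in DMD and 0.900 times as high in WT SCs. Since CPM follow the scaling, the ratios move with it: under library size alone the members took 2.43 to 2.76% of all counts in DMD DIFF and 1.75 to 2.00% in WT DIFF, but 2.56 to 3.14% in DMD PROL and 2.49 to 2.82% in WT PROL, which overlapped.

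**Figure D5:**
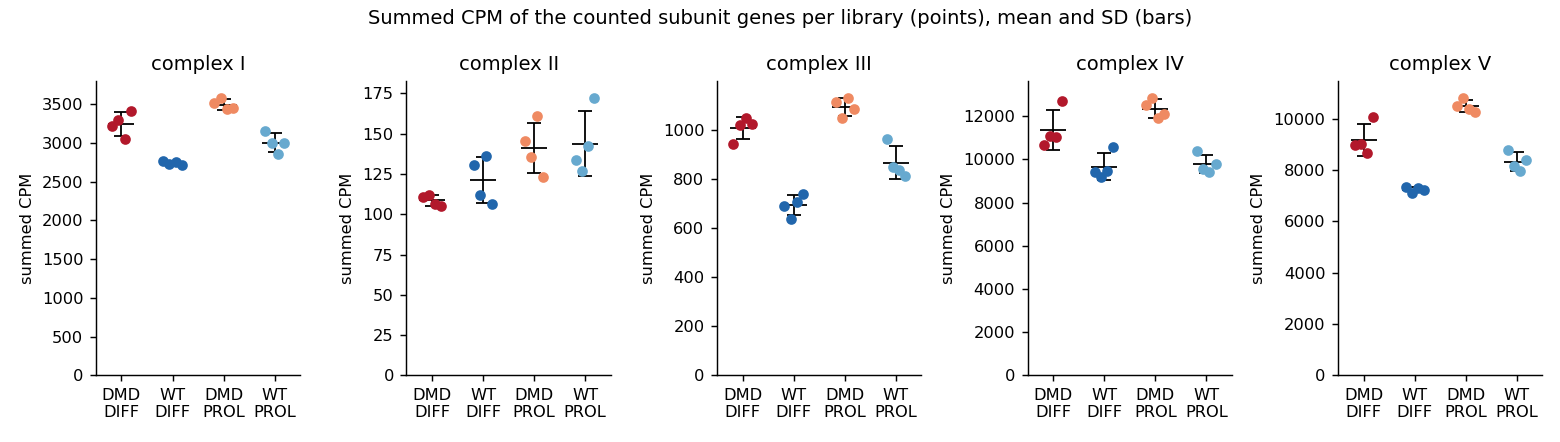
Summed CPM of the member subunit genes of complexes I to V in each of the 16 libraries. Points are libraries and bars the group mean and SD, for DMD DIFF, WT DIFF, DMD PROL and WT PROL. DMD libraries lie above WT libraries of the same state in complexes I, III, IV and V, and the genotypes overlap in complex II.

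Whether the genotype difference itself changed with the state was tested as an interaction over all 16 libraries. Of 34 members tested, 2 had a genotype effect that was higher in DIFF than in PROL and 2 had a lower one, against 10.5% and 13.0% of the 2030 genes tested. The adjusted p alone was met by 6 members in the higher and 7 in the lower direction, against 13.2% and 15.7% of all genes. For CYCS the difference in log2 fold change was 2.15 ± 0.17 (edgeR adjusted p = 1.0e-08) and for ATP5G1 it was 0.65 ± 0.12 (edgeR adjusted p = 2.9e-04). In the other direction it was -1.20 ± 0.24 for COX7A1 (edgeR adjusted p = 6.1e-04) and -0.65 ± 0.11 for COX6C (edgeR adjusted p = 6.2e-05). ATP5G1 fell under the fold threshold at 0.58 without DMD replicate 4, 0.59 without WT replicate 2 and 0.54 with the second duplicate alone, and COX6C at -0.59 without WT replicate 4, -0.37 with library size alone (edgeR adjusted p = 0.024) and -0.41 with library size without RN18S (edgeR adjusted p = 0.0048). The median over the members was 0.02, against -0.04 over all genes. Library size alone moved the median of all genes by 0.28 and the share of higher calls among all calls to 74.3%, against 44.7% with TMM, and it gave 6 members higher and 1 lower. Over all genes it gave 387 higher and 134 lower, against 213 and 263 with TMM.

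Neighbouring mitochondrial genes were read from lists of gene names. In DIFF their calls are read against the 16.1% of all genes called higher and 17.5% called lower in DMD SCs. Of 8 tested assembly factors of the chain, 1 was called higher in DMD DIFF than in WT DIFF: COX17, the copper chaperone of complex IV, had 181 to 232 CPM in DMD DIFF and 72.2 to 111 CPM in WT DIFF (log2 fold change 1.21 ± 0.15, edgeR adjusted p = 4.3e-06). Proliferating cells overlapped, with 207 to 233 CPM in DMD PROL and 213 to 226 CPM in WT PROL, and the interaction was 1.23 ± 0.17 (edgeR adjusted p = 9.7e-06). COX17 and TMEM126A fell in WT DIFF, while in DMD SCs TMEM126A and FOXRED1 fell, 2 assembly factors in each case. Protein import and chaperones had 1 of 6 called higher in DMD DIFF, CHCHD4, which imports and oxidises small cysteine-rich proteins such as COX17 (1.16 ± 0.15, edgeR adjusted p = 9.7e-06), and 1 lower, TOMM34 (-0.89). The list's chaperones HSPD1 and HSPE1 fell in DMD DIFF relative to DMD PROL.

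Citric acid cycle and pyruvate dehydrogenase genes had 2 of 10 called higher in DMD DIFF and none lower, MDH2, the mitochondrial malate dehydrogenase, at 0.80 ± 0.09 (edgeR adjusted p = 3.0e-06) and IDH2, the NADP-dependent isocitrate dehydrogenase, at 0.61 ± 0.17 (edgeR adjusted p = 0.0076). MDH2 and DLAT fell in WT DIFF, and no gene of the list was called in DMD SCs between states. Proteins of the mitochondrial ribosome had 1 of 16 called higher in DMD DIFF, MRPL40 (0.71 ± 0.11, edgeR adjusted p = 4.0e-05), and 3 of 16 fell in WT DIFF, MRPS28, MRPL40 and MRPL24, where 14.3% of all genes fell. The list's median between states was -0.42 in WT and -0.16 in DMD SCs, against 0.03 and 0.01 over all genes. Among mitochondrial antioxidants 2 of 7 were called lower in DMD DIFF and none higher, with a list median of -0.15: SOD2, the manganese superoxide dismutase, at -1.39 ± 0.35 (edgeR adjusted p = 0.0099) and the peroxiredoxin PRDX5 at -0.66 ± 0.12 (edgeR adjusted p = 2.1e-04). Among 5 tested genes that act with cytochrome c in apoptosis, PMAIP1, a BH3-only protein that promotes the release of cytochrome c, was called higher in DMD DIFF (1.25 ± 0.37, edgeR adjusted p = 0.011). Between states GPX1, a glutathione peroxidase, and MCL1, a BCL2 family member that keeps cytochrome c in place, rose in DIFF in both genotypes, at 1.18 and 1.53 in DMD and 1.32 and 0.87 in WT SCs. ATPIF1, the inhibitor of the ATP synthase, was not called in any comparison, with log2 fold changes of DMD over WT of 0.26 in DIFF and -0.28 in PROL. Both passed the adjusted p alone, as did the interaction at 0.54 and the change of -0.40 in WT DIFF against PROL. In PROL these lists had no called gene between genotypes, with the exception of TXNRD2 among the antioxidants (0.94 ± 0.33, edgeR adjusted p = 0.048). Carriers and porins with 2 tested genes, and regulators of mitochondrial biogenesis with 2, had none called in any comparison. In the interaction 1 of 8 assembly factors, 2 of 10 citric acid cycle genes, 1 of 6 import genes, 3 of 16 ribosomal proteins and 1 of 5 apoptosis genes were called in the higher direction, COX17, MDH2, IDH2, CHCHD4, MRPL17, MRPL40, MRPL24 and MCL1, and 1 import gene and 2 antioxidants in the lower, TOMM34, PRDX5 and TXNRD2, where 10.5% of all genes were called higher and 13.0% lower.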

How the data were processed

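SC RNA of 4 DMD and 4 WT animals, each in PROL and DIFF, was analysed by 3′ mRNA-seq with unique molecular identifiers. The authors deposited raw read counts per gene, made, per the study's methods and the submitters' processing notes, with bcl2fastq, FastQC, MultiQC, UMI-tools, STAR 2.7.10b (gene counts) and the genome susScr3. The annotation and strand setting are not given in the sources used here. Every deposited value was even (100% of 124000), so that counts may have been doubled before deposit, and this would understate counting error. Of 3875 genes, 608 had no count. Intervals cover counting error only.

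Technical duplicates were added per sample. Genes were filtered with filterByExpr (minimum count 10, minimum total 15), scaled by TMM and tested with edgeR 4.0.16 (R 4.3.3) by a robust quasi-likelihood fit on the groups compared, and the interaction on all 16 libraries. Calls needed a Benjamini-Hochberg adjusted p below 0.05 and an absolute log2 fold change above 0.6. Standard errors are the log2 fold change divided by the root of F. Rate ratios of rare genes use counts pooled per group over library totals, without TMM, and have exact 95% intervals. In simulated data with these depths, 83% of genes changed by log2 1 were called in the genotype comparison of either state. Between states it was 82% in WT and 79% in DMD SCs, and in the interaction 60%. Changes below log2 1 were not simulated. Alternatives were DESeq2 1.42.0, median-of-ratios factors, library size alone with and without RN18S, other filters, no minimum fold, halved counts, single duplicates, replicate blocks and leaving out each replicate.

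Both libraries of an animal are paired by design: their deviations from group means correlated at 0.114 to 0.172 in WT and 0.0998 to 0.143 in DMD SCs. Members and gene lists were chosen with earlier results of these data known. Named with full values are CYCS, the complex IV isoforms, per comparison and complex up to 3 called members in each direction by size, and per complex the member with the highest mean CPM. In related lists up to 2 called genes are given by smallest p. Genes named beyond this rule (those past the adjusted p alone, TOMM34, ATPIF1, NDUFAF3, UQCRB, NDUFA13, SDHD, NDUFA4L2 and the interaction genes of related lists) were chosen after their values were seen. All 35 member symbols matched a RefSeq gene table of another assembly, whose coordinates were not used. The result of a further gene in the related lists is not reported here.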

Additional observations from a re-analysis of the deposited data

Results flagged for a closer look

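A library was marked where its distance from the nearest other library of its group, divided by the range of the group, was above Dixon's 95% critical value for groups of 4, and chance alone marks about 1 in 20 groups. Of 88 groups of 4 tested, 5 were marked. COX7A1 in DMD DIFF had a ratio of 0.899, with replicate 2 at 175 CPM and the others at 125 to 130.2 CPM. COX8H in DMD DIFF had a ratio of 0.833, with replicate 1 at 14.0 CPM and the others at 5.83 to 7.20 CPM. NDUFS5 in WT DIFF had a ratio of 0.872, with replicate 2 at 881 CPM, and NDUFB2 in WT DIFF a ratio of 0.858, with replicate 1 at 377 CPM. NDUFAF3 in WT PROL had a ratio of 0.977, with replicate 4 at 120.0 CPM and the others between 136.5 and 136.9 CPM.

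The genotype effect was called different between DIFF and PROL, by the interaction test with the fold threshold, for 4 of 34 members tested. It was higher in DIFF for 2 and lower for 2, where 10.5% and 13.0% of all genes were called. The differences in log2 fold change were 2.15 for CYCS, 0.65 for ATP5G1, -0.65 for COX6C and -1.20 for COX7A1 (edgeR adjusted p = 1.0e-08, 2.9e-04, 6.2e-05 and 6.1e-04).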

How the results depend on the processing

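Called members depended on the fold threshold and on scaling; the cause was not tested. With no minimum fold, 13 members were called higher in DMD PROL, 18 higher and 3 lower in DMD DIFF, 4 higher and 14 lower in WT DIFF against WT PROL, 2 higher and 12 lower in DMD DIFF against DMD PROL, and 6 higher and 7 lower in the interaction. Library size alone and library size without RN18S both gave 0 higher in DMD PROL, 15 lower in WT DIFF against PROL, and 6 higher and 1 lower in the interaction. They gave 12 and 13 higher in DMD DIFF against WT DIFF, and without RN18S 2 were lower in DMD DIFF against PROL. Over all genes, library size alone moved the higher calls in DMD DIFF against WT DIFF from 308 to 387. It moved the lower calls over all genes in WT DIFF against PROL from 275 to 564. In PROL, no filter gave 2 higher, NDUFA4 and COX8H, and the second duplicate 0. The second duplicate gave 3 lower in DMD DIFF, and the first gave 2 higher in WT DIFF against PROL. Leaving out single replicates gave 0 to 1 higher in DMD PROL, 6 to 11 higher and 1 to 2 lower in DMD DIFF, 1 to 2 higher in WT DIFF against PROL, 0 to 1 lower in DMD DIFF against PROL, and 1 to 3 higher and 1 to 2 lower in the interaction.

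Summed CPM moved with scaling, given as log2 differences with library size alone and then without RN18S. For DMD over WT in PROL they were 0.061 and 0.11 in complex I, 0.18 and 0.24 in III, 0.18 and 0.23 in IV and 0.18 and 0.23 in V, against 0.22, 0.34, 0.34 and 0.33 with TMM. For DMD over WT in DIFF they were 0.37 and 0.39 in complex I, -0.022 and -0.0047 in II, 0.67 and 0.69 in III, 0.36 and 0.38 in IV and 0.47 and 0.49 in V, against 0.24, -0.15, 0.54, 0.23 and 0.34 with TMM. For DIFF over PROL in WT SCs they were -0.50 and -0.49 in complex I, -0.61 and -0.61 in II, -0.69 and -0.68 in III, -0.39 and -0.38 in IV and -0.57 and -0.56 in V, against -0.13, -0.24, -0.32, -0.02 and -0.20 with TMM. For DIFF over PROL in DMD SCs they were -0.19 and -0.22 in complex I, -0.20 and -0.23 in III and -0.28 and -0.31 in V, against -0.11, -0.12 and -0.20 with TMM, and -0.23 without RN18S in IV, against -0.12.

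Directions reversed in 3 small values. The interaction median of the members, 0.02, was -0.028 with the second duplicate and ran from -0.045 (without DMD replicate 4) to 0.11 when an animal was left out. Leaving out single replicates gave -0.088 to 0.067 for complex II in PROL (-0.02 with all) and -0.063 to 0.0096 for complex IV in WT DIFF over PROL (-0.02 with all). For the 19 named member results, 329 of 342 alternatives stayed on the same side of the threshold, 13 lost the call and 0 reversed. CYCS in PROL and CYCS between states in DMD SCs were not called at first, so staying uncalled counted as the same side. The lost calls were NDUFA4 in PROL, ATP5I in DIFF, and COX6C and ATP5G1 in the interaction. The COX7A1 share in DMD DIFF, 14.2 percentage points lower than in WT DIFF, stayed 13.0 to 15.2 points lower with either duplicate or any replicate left out, alternatives added after the data were seen.

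The replicate block changed no count of called members, with CYCS at 1.95 in DIFF, -1.80 in WT SCs between states and 2.16 in the interaction. Between genotypes, equal replicate numbers are only names: deviations of same-numbered libraries correlated at -0.0274 to 0.0993 in PROL and -0.0087 to 0.0921 in DIFF, with 2 of 4 and 3 of 4 libraries closest to their own number. The values are relative to other RNAs of a library. COX8H, NDUFA13 and NDUFA4L2 did not pass the filter of the main test between genotypes.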
